A study of Mus musculus with 100 samples.

Results

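The 45 genes described here encode proteins that copy DNA, condense and separate chromosomes, and time these steps in dividing cells. They were taken by name from a list, and all 45 were found among the 17310 genes of the count table. By role they were divided into 12 mitotic kinases, cyclins and checkpoint genes, 19 genes of the spindle, chromosomes and cytokinesis, 11 genes of DNA replication and nucleotide supply, and 3 transcription factors. Every member had reads in every library, with at least 136 counts. Mean levels over the 100 libraries ranged from 24.9 CPM (counts scaled to a common library size) for E2f1, a transcription factor that switches on replication genes, to 1355 CPM for Mki67, which encodes the proliferation antigen Ki-67.

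In dividing cells, E2F factors turn on the enzymes and helicase subunits of DNA replication as the cell enters S phase, and the factors Mybl2 and Foxm1 then turn on the kinases, cyclins and spindle proteins of mitosis. Transcripts of these genes are scarce in resting cells, so their level in a tissue is widely read as a measure of how many of its cells divide. A knee joint holds cells that divide little, such as those of articular cartilage and muscle fibers, together with growth plate and bone marrow, where blood precursors divide throughout life.

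The study asked how joints of mouse strains that differ in susceptibility to post-traumatic osteoarthritis respond to injury. Right knees of 10 weeks old MRL/MpJ (labelled as not susceptible), C57BL/6 and STR/ort (labelled as highly susceptible) mice were injured with a compressive load between 10 and 12 N. Joints, cut with only traces of soft tissue left, gave 4 uninjured libraries per strain before injury (0-day), and later time points gave injured right joints and uninjured contralateral joints of the same kind of mice. These later groups (1-day, 1-week, 2-weeks) held 5 libraries each, or 4 in the uninjured MRL/MpJ and STR/ort groups of 1-week. No allele was engineered in any group, and contralateral joints came from animals that had been injured on the other side. The 2-weeks libraries form batch 2 in the labels and all others batch 1, so that for 2-weeks against earlier times the batch and the time cannot be told apart. Totals ranged from 6182016 to 20986027 counts, with a median of 10582592. Of the cell type markers, all 8 growth plate cartilage genes, all 8 fast muscle genes and all 10 granulocyte precursor genes had reads in every library. Markers of marrow cells and muscle were thus part of the measured RNA. In such bulk samples, fewer cells of a type and less RNA per cell cannot be told apart.

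Upstream sequences are shown for 5 members, chosen as examples of the mitotic genes (Cdk1, Bub1 and Kif11) and the replication genes (Rrm2 and Mcm6) whose window lies outside the annotated gene, so that the letters they share can be compared. RefSeq promoters (GRCm38.p6) matched 39 of the 45 members. In the 250 bases before the first listed start, both strands were searched for E2F-type motifs (TTTCCCGC, TTTCGCGC, TTTGCCGC or TTTGGCGC), for the cell cycle homology region (CHR, TTTGAA or TTCGAA) and for the CCAAT box. The last 150 of these bases are printed 5′ to 3′ on the gene's own strand, with matches in capitals. These are the mitotic kinase gene Cdk1 (chr10:69352913-69353062, minus strand), the checkpoint kinase gene Bub1 (chr2:127831860-127832009, minus strand), the spindle motor gene Kif11 (chr19:37376232-37376381, plus strand), the ribonucleotide reductase gene Rrm2 (chr12:24708104-24708253, plus strand) and the replicative helicase gene Mcm6 (chr1:128359706-128359855, minus strand).
Cdk1: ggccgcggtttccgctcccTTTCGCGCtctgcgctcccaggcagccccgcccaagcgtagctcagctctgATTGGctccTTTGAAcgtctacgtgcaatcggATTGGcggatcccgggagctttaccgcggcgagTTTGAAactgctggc
Bub1: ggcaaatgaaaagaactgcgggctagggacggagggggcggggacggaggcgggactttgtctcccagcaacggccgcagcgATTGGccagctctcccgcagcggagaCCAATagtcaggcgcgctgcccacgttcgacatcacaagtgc
Kif11: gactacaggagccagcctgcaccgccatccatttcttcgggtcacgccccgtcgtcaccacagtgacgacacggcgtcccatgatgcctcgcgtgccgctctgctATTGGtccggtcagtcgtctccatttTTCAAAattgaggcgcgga
Rrm2: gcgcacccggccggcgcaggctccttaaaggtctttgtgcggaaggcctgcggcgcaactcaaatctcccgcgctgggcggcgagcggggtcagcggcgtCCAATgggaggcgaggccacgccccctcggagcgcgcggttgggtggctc
Mcm6: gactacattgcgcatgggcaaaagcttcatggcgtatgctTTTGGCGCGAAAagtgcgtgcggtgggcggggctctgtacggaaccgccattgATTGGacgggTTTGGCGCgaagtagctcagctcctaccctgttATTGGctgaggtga

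A CCAAT box was present in 30 of the 39 member promoters (76.9%), against 35.6% of 12755 other genes of the count table and 34.5% of all 27025 promoters. All 10 kinase, cyclin and checkpoint genes with a promoter entry had one, as did 12 of 17 spindle and chromosome genes, 8 of 10 replication genes and 0 of 2 transcription factor genes. A CHR was found in 13 members (33.3%), against 12.8% of the other table genes and 17.4% of all promoters. Both motifs together occurred in 11 members (28.2%), against 4.89% and 6.21%. An E2F-type motif was found in 5 members (12.8%), against 2.96% and 1.91%. They were Cdk1, the kinesin gene Kif15, and the helicase genes Mcm5, Mcm6 and Mcm7. In 20 of the 39 members the searched window reached into the annotated span of the gene itself, and in 5 it lay wholly within it. These 5 were Aurka, Kif2c, Ect2, E2f1 and Mybl2. They include both transcription factor genes with an entry, so the 0 of 2 does not describe the sequence before those genes. A match describes the letters of this window and is not a measured binding site.

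The mean log2 CPM over the 45 members summarised each library. Before injury it was 6.89 ± 0.10 (SD, n = 4) in MRL/MpJ, 6.62 ± 0.082 (n = 4) in C57BL/6 and 6.32 ± 0.13 (n = 4) in STR/ort. The 0-day libraries did not overlap between strains, with MRL/MpJ between 6.79 and 7.02, C57BL/6 between 6.50 and 6.68, and STR/ort between 6.15 and 6.46. In uninjured contralateral joints the means for MRL/MpJ, C57BL/6 and STR/ort were 6.92, 6.77 and 6.50 at 1-day, 6.90, 6.91 and 6.38 at 1-week, and 6.55, 6.44 and 6.03 at 2-weeks. In injured joints they were 6.87, 6.61 and 6.57 at 1-day, 6.81, 6.80 and 6.14 at 1-week, and 6.49, 6.16 and 5.72 at 2-weeks. STR/ort had the lowest mean in all 7 sets of joints, whereas C57BL/6 and MRL/MpJ changed order in the uninjured joints of 1-week. The lowest group was injured STR/ort at 2-weeks, with libraries between 5.53 and 5.89. At 1-week the uninjured STR/ort joints spread from 6.13 to 6.78 and the injured ones from 5.80 to 6.56, the joints numbered 3 being highest in both. At 2-weeks the injured MRL/MpJ joint numbered 4 stood at 5.97 while the other 4 lay between 6.54 and 6.71.

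**Figure D1:**
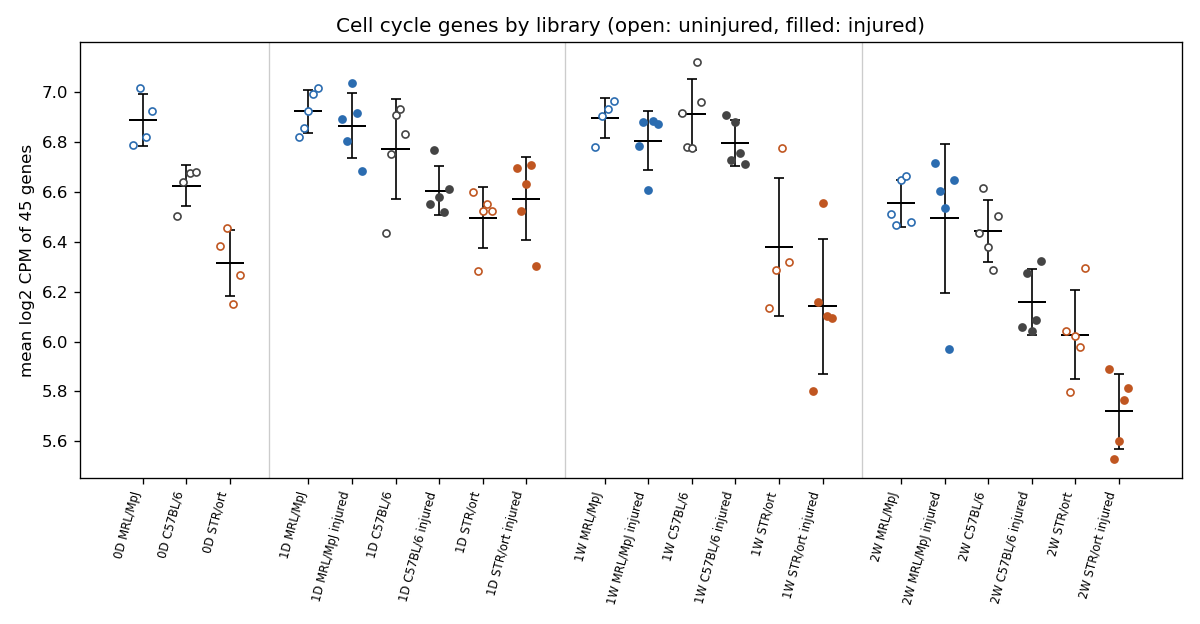
Mean log2 CPM over the 45 members in each of the 100 libraries (points), by time, strain and joint, with group means and SDs. STR/ort libraries are lowest before injury, between 6.15 and 6.46, and the injured STR/ort joints of 2-weeks are the lowest group, between 5.53 and 5.89.

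Before injury, many members were lower in STR/ort than in MRL/MpJ, and few were called against C57BL/6. A gene counted as called if the adjusted p (edgeR quasi-likelihood test, Benjamini-Hochberg over all 17310 genes) was below 0.05 and the fold change above 1.5. STR/ort was lower than MRL/MpJ for 18 of 45 members, while 6.44% of all genes were called lower, and the median log2 fold change of the members was -0.56. These were 8 of the 19 spindle and chromosome genes, 5 of the 11 replication genes, 3 of the 12 kinase, cyclin and checkpoint genes and 2 of the 3 transcription factors. Against C57BL/6, STR/ort was lower for 3 members, or 6.67% of them against 5.99% of all genes, namely Mki67, Kif11 and Rrm2, with a median of -0.34. Without the STR/ort joint numbered 3 this count was 1. The 18 against MRL/MpJ became 11 both after housekeeping scaling and with 2 factors of unwanted variation estimated from the housekeeping genes (RUVg), and the 3 became 1 with 2 such factors and 0 with 1. C57BL/6 was lower than MRL/MpJ for 1 member (6.26% of all genes), Mybl2, with a median of -0.19, and for 0 with 2 RUVg factors. No member was called higher in any of these comparisons, which share their libraries. Without the fold threshold, 44 members were lower in STR/ort than in MRL/MpJ at an adjusted p below 0.05. Against C57BL/6 there were 35 in STR/ort, and 20 were lower in C57BL/6 than in MRL/MpJ, with 0 higher throughout. In the same order, 44, 37 and 24 members had an unadjusted p below 0.05, as had 7443, 7671 and 7438 of the 17310 genes.

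Mki67 (chromosome 7, 135689784 to 135716450, GRCm38.p6) had 1870, 2180, 1880 and 2200 CPM in the 4 MRL/MpJ joints of 0-day, 1190, 1470, 1460 and 1440 CPM in C57BL/6 and 1020, 1090, 740 and 782 CPM in STR/ort. The libraries of the 3 strains did not overlap. Its log2 fold change between STR/ort and MRL/MpJ was -1.16 (SE 0.12, adjusted p = 6.95e-07), the largest among the called members. Rrm2 (chromosome 12, 24708254 to 24714146) encodes the small subunit of ribonucleotide reductase, which supplies deoxynucleotides for DNA synthesis. It had 222, 266, 237 and 254 CPM in MRL/MpJ, 193, 219, 225 and 223 CPM in C57BL/6 and 149, 148, 140 and 152 CPM in STR/ort. STR/ort stood below both other strains, at -0.73 against MRL/MpJ (SE 0.0745, adjusted p = 5.13e-07) and -0.59 against C57BL/6 (SE 0.0741, adjusted p = 8.86e-06), whereas MRL/MpJ and C57BL/6 overlapped.

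Kif11 (chromosome 19, 37376382 to 37421863), the motor that pushes spindle poles apart, likewise lay lowest in STR/ort. Its 0-day levels were 207, 241, 210 and 242 CPM in MRL/MpJ, 216, 248, 235 and 237 CPM in C57BL/6 and 163, 169, 130 and 137 CPM in STR/ort. The first pair of strains overlapped, and STR/ort was lower than C57BL/6 by -0.68 (SE 0.0897, adjusted p = 1.37e-05). Against MRL/MpJ the difference of -0.58 (SE 0.0902, adjusted p = 6.11e-05) stayed under the fold threshold. Mybl2 (chromosome 2, 163054327 to 163084688), the Myb-family factor that acts late in the cycle, was instead high in MRL/MpJ alone. It had 65.7, 73.5, 61.5 and 64.7 CPM in MRL/MpJ, 34.2, 39.2, 46 and 39.8 CPM in C57BL/6 and 34, 42.9, 32.5 and 37.7 CPM in STR/ort. C57BL/6 and STR/ort overlapped for Mybl2 and each lay below MRL/MpJ, by -0.70 (SE 0.0973, adjusted p = 1.98e-05) and -0.85 (SE 0.0992, adjusted p = 2.35e-06). E2f1 differed less, with 23.9 to 31.2 CPM in MRL/MpJ, 17.9 to 20.9 CPM in C57BL/6 and 17.9 to 25.8 CPM in STR/ort, and STR/ort overlapped both other strains.

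In other mice, in the contralateral joints after injury, STR/ort again had the lowest member means. STR/ort was lower than MRL/MpJ for 6 members at 1-day (9.54% of all genes called lower), 11 at 1-week (10.7%) and 16 at 2-weeks (5.86%), with medians of -0.34, -0.48 and -0.54. The 6 members of 1-day are 13.3% of the 45 and the 11 of 1-week 24.4%, to be read against these shares of all genes. Against C57BL/6, STR/ort was lower for 1 member at 1-day (4.74%), 13 at 1-week (9.12%) and 4 at 2-weeks (4.86%), with medians of -0.25, -0.51 and -0.40. Between C57BL/6 and MRL/MpJ, 0 members were called in the quasi-likelihood test or by DESeq2 at 1-day (5.81% of all genes lower), 1-week (4%) and 2-weeks (3.82%), and 8, 7 and 7 members had an unadjusted p below 0.05. With 2 RUVg factors the 3 counts of STR/ort against MRL/MpJ became 31, 28 and 2 and those against C57BL/6 became 7, 39 and 0. After housekeeping scaling they became 15, 28 and 9, and 3, 32 and 0. At 1-day the count of 1 against C57BL/6 was 3 without the C57BL/6 joint numbered 1 or the STR/ort joint numbered 1, and 2 without the C57BL/6 joint 2 or the STR/ort joints 4 or 5. At 1-week the count of 11 against MRL/MpJ was 27 without the STR/ort joint numbered 3 and 6 without the STR/ort joint 1 or 2, and the 13 against C57BL/6 became 32 without the STR/ort joint 3. At 2-weeks the 16 against MRL/MpJ became 25, 9 and 10 without the STR/ort joints 5 and 2 and the MRL/MpJ joint 4, and the 4 against C57BL/6 became 10 without the STR/ort joint 5 and 7 without the C57BL/6 joint 4. Without the fold threshold, STR/ort had 36, 34 and 42 members lower than MRL/MpJ at an adjusted p below 0.05 at the 3 times. Against C57BL/6 there were 26, 35 and 36, and C57BL/6 had 6, 0 and 5 lower than MRL/MpJ, with 0 higher throughout. In the same order, 39, 38 and 44, 36, 36 and 42, and 8, 7 and 7 members had an unadjusted p below 0.05. So had 9321, 8767 and 7354, 6669, 8695 and 6392, and 7387, 4900 and 5902 of all genes.

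In injured joints STR/ort was again lowest, with most members called at 1-week and 2-weeks against MRL/MpJ and at 1-week against C57BL/6. The change of the strain difference over time was not tested. STR/ort was lower than MRL/MpJ for 4 members at 1-day (10.1% of all genes), 28 at 1-week (14.5%) and 38 at 2-weeks (7.89%), with medians of -0.25, -0.64 and -0.78. The 4 of 1-day are 8.89% of the members, below the share of all genes. Against C57BL/6 the counts were 0 at 1-day (7.48%), 26 at 1-week (11.8%) and 6 at 2-weeks (4.96%), with medians of -0.06, -0.60 and -0.46. At 1-day 7 members had an unadjusted p below 0.05 against C57BL/6, and DESeq2 also called 0. The 26 became 16 without the STR/ort joint numbered 1 and 42 with 2 RUVg factors. C57BL/6 was lower than MRL/MpJ for 3 members at 1-day (6.33%), 0 at 1-week (4.69%, with 4 members at an unadjusted p below 0.05 and 0 called by DESeq2) and 2 at 2-weeks (4.15%), with medians of -0.26, 0.00 and -0.34. The 2 of 2-weeks became 9 and 1 without the MRL/MpJ joints 4 and 1, and 4 without the C57BL/6 joint 2. The 38 members called in injured joints of 2-weeks were all 11 replication genes, 16 of 19 spindle and chromosome genes, 9 of 12 kinase, cyclin and checkpoint genes and 2 of 3 transcription factors. With 2 RUVg factors, the 38 became 13 and the 6 against C57BL/6 became 0, whereas the 4 against MRL/MpJ at 1-day became 23, so that with these factors 1-day had more calls against MRL/MpJ than 2-weeks. Housekeeping scaling gave 13 in place of the 4. Without the fold threshold, STR/ort had 26, 44 and 45 members lower than MRL/MpJ at an adjusted p below 0.05 at the 3 times. Against C57BL/6 there were 2, 42 and 37, with 1 higher at 1-day. C57BL/6 had 25, 1 and 32 lower than MRL/MpJ, with 1 higher at 1-week. In the same order, 28, 45 and 45, 7, 45 and 40, and 29, 4 and 38 members had an unadjusted p below 0.05. So had 9016, 10044 and 8511, 7069, 9510 and 6546, and 7838, 5448 and 6782 of all genes.

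Values of single genes are given for the times at which they stood out by the smallest adjusted p or the largest change. In injured joints of 2-weeks Mki67 had 1450, 1400, 1310, 851 and 1440 CPM in MRL/MpJ, 793, 951, 803, 798 and 989 CPM in C57BL/6 and 604, 486, 487, 473 and 543 CPM in STR/ort. The STR/ort libraries lay below all others, and the MRL/MpJ joint numbered 4 lay among those of C57BL/6. The log2 fold change between STR/ort and MRL/MpJ was -1.31 (SE 0.12, adjusted p = 1.49e-10). Kif11 in injured joints of 1-week had 312, 282, 312, 283 and 273 CPM in C57BL/6 and 83.9, 109, 160, 123 and 108 CPM in STR/ort, without overlap, a log2 fold change of -1.34 (SE 0.13, adjusted p = 1.12e-09). Cenpf, which encodes a kinetochore protein of mitosis (chromosome 1, 189640606 to 189688107), had 223, 224, 186, 239 and 225 CPM in injured MRL/MpJ joints of 1-week and 83.1, 104, 138, 102 and 96.4 CPM in STR/ort, without overlap (log2 fold change -1.08, SE 0.12, adjusted p = 8.09e-09). Ttk, a kinase of the spindle checkpoint, was among the few members called between C57BL/6 and MRL/MpJ. In injured joints of 2-weeks it had 32.9, 32.8, 28.8, 20.6 and 32 CPM in MRL/MpJ and 17.7, 17.6, 15.3, 15.5 and 21.8 CPM in C57BL/6, where the MRL/MpJ joint numbered 4 was the only overlap (log2 fold change -0.74, SE 0.12, adjusted p = 2.62e-05).

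**Figure D2:**
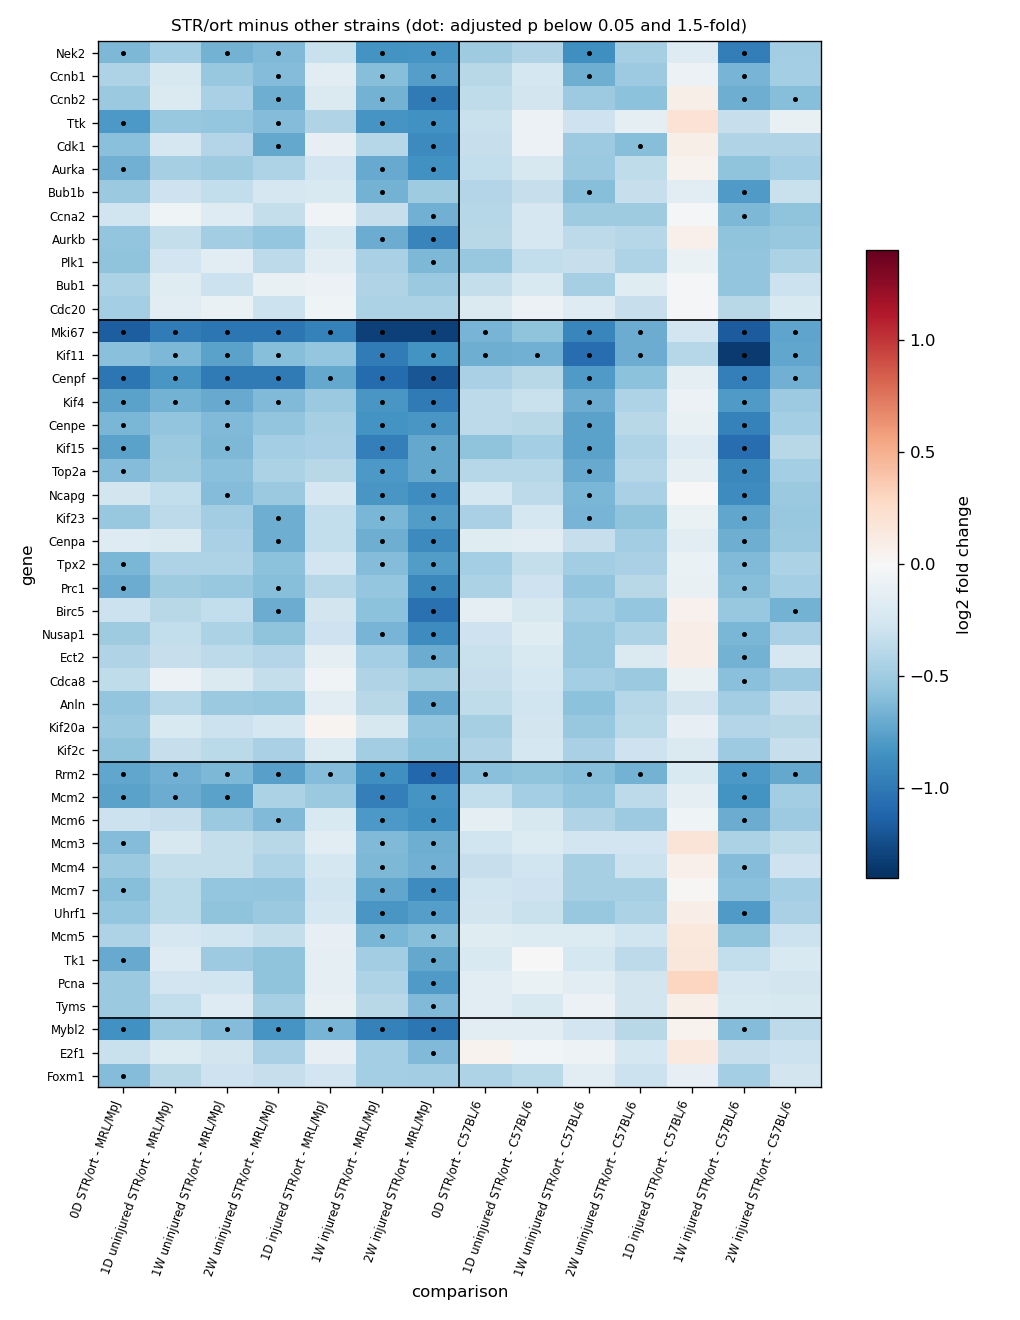
Log2 fold change of each of the 45 members (rows, ordered by role) between STR/ort and each other strain (columns, by time and joint), as a color scale from blue (lower in STR/ort) to red, with a dot where a gene was called. Medians of STR/ort minus MRL/MpJ run from -0.25 in injured joints of 1-day to -0.78 in injured joints of 2-weeks.

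Over the 14 comparisons of STR/ort with another strain, 41 members (91.1%) were called lower at least once, against 30.2% of all genes, and no member was called higher. The other 4 were Bub1 and Cdc20, of the spindle checkpoint and the anaphase-promoting complex, and the kinesins Kif20a and Kif2c. Mki67 and Rrm2 were called in 12 of the 14, Kif11 in 11, Cenpf in 10 and Kif4, which compacts chromosomes, in 8. In all 7 comparisons with MRL/MpJ, 44 members were lower in STR/ort by sign, Kif20a being the exception with 0.04 in injured joints of 1-day. In all 7 comparisons with C57BL/6 the sign was negative for 27 members. The largest departure was Pcna, the sliding clamp of the replication fork, in injured joints of 1-day. It had 302, 284, 303, 321 and 235 CPM in STR/ort and 218, 263, 238, 207 and 245 CPM in C57BL/6, overlapping at the STR/ort joint numbered 5, with a log2 fold change of 0.30 (SE 0.0898, adjusted p = 0.0121). These comparisons share libraries within each time point. Scaling by 25 housekeeping genes moved the median log2 fold change of all genes from 0.01 to -0.23 for injured STR/ort against MRL/MpJ at 1-day, where the member median moved to -0.48. For uninjured STR/ort against C57BL/6 at 2-weeks it moved all genes to 0.14 and the members to -0.27. Under this scaling the member median lay below that of all genes in each of the 14 comparisons.

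Injury itself called 0 of the 45 members in any strain at any time, in the edgeR test and in DESeq2 alike. Of all genes, 2.02%, 5.6% and 4.31% were called in either direction at 1-day in MRL/MpJ, C57BL/6 and STR/ort, 3.13%, 5.82% and 9.21% at 1-week, and 1.16%, 2.95% and 4.66% at 2-weeks. In that order 0, 22 and 2 members had an unadjusted p below 0.05 at 1-day, 0, 1 and 24 at 1-week, and 0, 39 and 39 at 2-weeks. Members were therefore also counted at an adjusted p below 0.05 without the fold threshold. In MRL/MpJ this gave 0 at each of the 3 times, where 0.971%, 0.416% and 0.0231% of all genes were lower. Its member medians were -0.04, -0.07 and -0.05. The value of 2-weeks includes the injured joint numbered 4, with a member mean of 5.97. The other injured joints lay between 6.54 and 6.71 and the uninjured ones between 6.47 and 6.66.

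In C57BL/6 at 1-day, 11 members were lower in injured joints at an adjusted p below 0.05 (8.15% of all genes), and the member median was -0.18. They included 8 of the 11 replication genes (Mcm2, Mcm3, Mcm4, Mcm5 and Mcm7 of the helicase, Pcna, Rrm2 and the methylation-maintenance gene Uhrf1), with Mybl2, the cyclin Ccnb2 and the condensin gene Ncapg. Rrm2 had 189, 235, 193, 173 and 211 CPM in injured and 201, 263, 277, 268 and 285 CPM in uninjured joints, which overlapped at the uninjured joint numbered 1 (log2 fold change -0.37, SE 0.0946, adjusted p = 0.00507). Mybl2 had 41.1, 39.3, 38.9, 34.5 and 34.4 CPM in injured and 39.7, 43.5, 49.5, 56.2 and 46.6 CPM in uninjured joints, again overlapping at that joint (-0.34, SE 0.0842, adjusted p = 0.00458). The count was 24 without the uninjured joint 1 and 18 without the injured joint 2. It was 3, 5 and 5 without the injured joints 4, 1 and 3, 4, 5 and 5 without the uninjured joints 4, 3 and 5, and 7 without the MRL/MpJ joints injured 1 or 2 or uninjured 4, which enter the estimate of spread. The 7 measured erythroid markers had a summed level of 2000 to 3243 CPM in injured and 2777 to 4170 CPM in uninjured joints, and 2 of them were called lower. Granulocyte precursor sums were 7693 to 9659 CPM in injured and 10840 to 14200 CPM in uninjured joints, without overlap, with 0 of 10 called. Activated fibroblast sums were higher, at 17700 to 26720 CPM against 11280 to 16310 CPM, with 5 of 8 called higher. Of the macrophage markers 3 of 8 were called higher, of the growth plate cartilage markers 2 of 8 lower and of the B cell precursor markers 1 of 9 lower, with overlapping sums. Of the fast muscle markers Myh1 was called higher and Pvalb lower. Of the muscle precursor markers Myod1 and Myog were called higher. The sums of both muscle lists overlapped. The part of these markers in the result was not tested. The 11 became 20 after housekeeping scaling, 34 with 2 RUVg factors and 4 in a fit of the compared groups alone. In STR/ort at 1-day 0 members were lower (5.07% of all genes). The median was 0.08 and became -0.04 after housekeeping scaling and -0.08 with 2 RUVg factors.

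At 1-week, STR/ort had 5 members lower in injured joints at an adjusted p below 0.05, a share of members near the 10.2% of all genes, with a median of -0.28, and C57BL/6 had 0 (3.3% of all genes), with a median of -0.09. The 5 were Mcm2, Mcm5, Uhrf1, Kif15 and the checkpoint kinase gene Bub1b. Mcm5 (chromosome 8, 75109468 to 75128439) had 95, 127, 144, 121 and 125 CPM in injured and 150, 152, 212 and 152 CPM in uninjured joints, without overlap (log2 fold change -0.45, SE 0.12, adjusted p = 0.00604). At this time every pair of STR/ort joints with the same number deviated together, and with the replicate number as a block 26 members were lower. The uninjured joint 3 had a member mean of 6.78 against 6.13 to 6.32 in the other uninjured joints. For the injured joint 3 it was 6.56 against 5.80 to 6.16, so the size of the median also depends on these joints. Without the injured joint 3 there were 31 members lower and without the uninjured joint 3 there were 0. Without the uninjured joints 1 and 2 there were 17 and 9, without the injured joint 1 there was 1, and without the injured joints 2, 4 or 5 or the C57BL/6 injured joints 1, 2, 3 or 5 there were 2. With both joints numbered 3 left out, an alternative added after seeing the data, the count was 4. It was 14 after housekeeping scaling, 17 with 2 RUVg factors and 1 in a fit of the compared groups alone. The erythroid sum was 904.7 to 2779 CPM in injured and 1648 to 4166 CPM in uninjured STR/ort joints, highest in the joints numbered 3, with 3 of 7 markers called lower. Of the granulocyte precursor markers 5 of 10 were called lower, with sums of 6067 to 8847 CPM and 10190 to 13680 CPM, and of the activated fibroblast markers 7 of 8 were called higher, with 40360 to 69220 CPM and 16210 to 30680 CPM. Of the fast muscle markers 7 of 8 were called lower, with 14900 to 32600 CPM and 29590 to 57270 CPM. Muscle precursor sums were 39.33 to 81.03 CPM and 24.74 to 39.29 CPM, with Myh3, Myh8 and Myog called higher. Endothelial sums were 389.9 to 491 CPM and 277.3 to 336.8 CPM, with Emcn called higher. The B cell precursor markers Dntt and Vpreb3 and the macrophage marker Cd163 were called lower. Of the growth plate cartilage markers Acan and Sox9 were called higher and Col10a1 lower. The part of these markers in the result was not tested.

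At 2-weeks all 45 members were lower by sign in injured joints of both C57BL/6 and STR/ort. In STR/ort 17 were lower at an adjusted p below 0.05 (3.4% of all genes), with a median of -0.30, and in C57BL/6 5 were (1.42% of all genes), with a median of -0.29. Aurka, a kinase of spindle poles, had 31, 23.9, 24, 26.5 and 29.6 CPM in injured and 39, 28.4, 35.9, 33.6 and 43.9 CPM in uninjured STR/ort joints, overlapping at the uninjured joint numbered 2 (log2 fold change -0.41, SE 0.091, adjusted p = 0.00156). Bub1, a kinase of the spindle checkpoint, had 32.4, 23.5, 26.5, 28.8 and 31.2 CPM in injured and 39.2, 33.6, 38.3, 37.2 and 48.2 CPM in uninjured joints, without overlap (-0.46, SE 0.12, adjusted p = 0.00612). Cdk1 in C57BL/6 had 57.7, 65.7, 54.1, 55.9 and 66 CPM in injured and 76.9, 85.2, 74, 72 and 83 CPM in uninjured joints, without overlap (-0.38, SE 0.10, adjusted p = 0.0138). Anln, which encodes the cytokinesis scaffold anillin, was also lower in C57BL/6 (-0.35, SE 0.0963, adjusted p = 0.0194). The labels name the same animal for both joints here, and with the replicate block 16 members were lower in C57BL/6 and 22 in STR/ort. Housekeeping scaling gave 10 and 38, 2 RUVg factors gave 23 and 45, and the compared groups alone gave 33 and 20.

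These counts at 2-weeks depended on single libraries. Without the injured MRL/MpJ joint numbered 4, which enters only the estimate of spread, 32 members were lower in C57BL/6 and 41 in STR/ort. In STR/ort there were 30 without the uninjured joint 2, 3 without the uninjured joint 5, 4, 6, 8 and 10 without the injured joints 2, 3, 4 and 5, 10 without the uninjured joints 3 or 4, and 11 without the uninjured joint 1 or the MRL/MpJ injured joint 3. In C57BL/6 there were 11, 8 and 9 without the injured joints 5 and 2 and the uninjured joint 4, 3 without the injured joint 3 or the MRL/MpJ uninjured joints 1 or 5, 2 without the uninjured joints 1 or 5, and 1 without the injured joints 1 or 4 or the uninjured joint 2. The erythroid sum was 1308 to 2087 CPM in injured and 1692 to 2479 CPM in uninjured STR/ort joints, and 2472 to 3474 CPM and 3296 to 4411 CPM in C57BL/6, with 0 of 7 markers called in either strain. Granulocyte precursor sums were 7150 to 10360 CPM and 8343 to 12200 CPM in STR/ort and, without overlap, 8143 to 10030 CPM and 10790 to 13130 CPM in C57BL/6, with 0 of 10 called. Macrophage sums in C57BL/6 were also lower without overlap, at 1327 to 1544 CPM and 1618 to 1808 CPM, though no marker was called. In STR/ort they overlapped. Activated fibroblast sums were higher in injured joints without overlap, at 26370 to 36250 CPM against 13720 to 18190 CPM in STR/ort (6 of 8 called higher) and 19070 to 26240 CPM against 13650 to 15720 CPM in C57BL/6 (5 of 8). In STR/ort growth plate cartilage sums (3471 to 5196 CPM against 2110 to 3155 CPM, 3 of 8 called higher) and endothelial sums (405.4 to 438.7 CPM against 343.6 to 364.7 CPM, 1 of 6) were also higher without overlap. The 3 cartilage genes called were Col2a1, Acan and Sox9, whereas Col10a1 and Ihh of that list were not called. The part of these markers in the result was not tested. Aurka had 50.7, 50.5, 51.4, 41.2 and 51.2 CPM in injured and 45.6, 48, 47.9, 51.3 and 49.4 CPM in uninjured MRL/MpJ joints, which overlapped (0.01, SE 0.0859, adjusted p = 1).

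**Figure D3:**
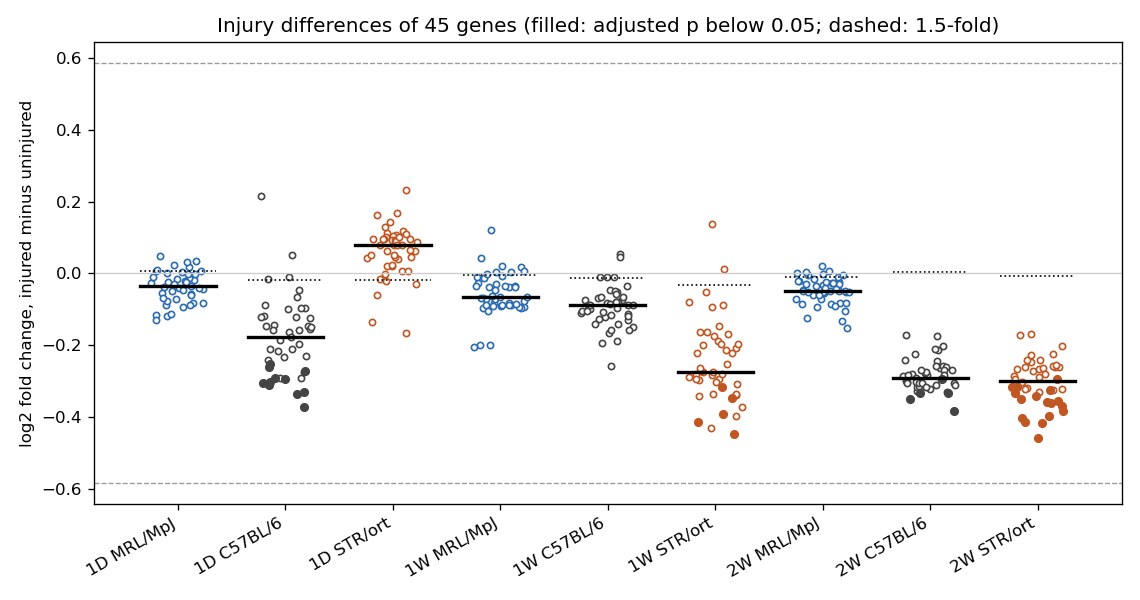
Log2 fold change of each of the 45 members between injured and uninjured joints, by time and strain. Points are genes (filled at an adjusted p below 0.05), solid bars member medians, dotted bars medians of all genes, and dashed lines the 1.5-fold threshold. Member medians lie between -0.09 and 0.08 except in C57BL/6 at 1-day and 2-weeks (-0.18 and -0.29) and in STR/ort at 1-week and 2-weeks (-0.28 and -0.30).

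Whether the injury effect differed between strains was tested as an interaction. In any pair of strains 0 members were called by edgeR or DESeq2 at the 3 times in order, while 2.72%, 1.05% and 0.456% of all genes were called in at least 1 pair. For C57BL/6 against MRL/MpJ, STR/ort against MRL/MpJ and STR/ort against C57BL/6, an unadjusted p below 0.05 was found for 7, 2 and 17 members at 1-day, 0, 2 and 2 at 1-week, and 2, 10 and 0 at 2-weeks. The smallest adjusted p belonged to Uhrf1 at 1-day, whose injury effect was 0.40 higher in STR/ort than in C57BL/6 (SE 0.12, adjusted p = 0.0559). For Aurka at 2-weeks the effect in STR/ort was below that in MRL/MpJ by -0.42 (SE 0.13, adjusted p = 0.137). A difference between strains in the response of the members to injury was thus not shown.

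Levels were also compared over time in batch 1. Of all genes, 10.3% were called in at least 1 strain between uninjured joints of 1-day and 0-day, 16.7% between 1-week and 0-day, and 7.38% for the injury effect of 1-week minus that of 1-day, whereas 0 members were called in each by edgeR and by DESeq2. At an adjusted p below 0.05 alone, 21 members were higher in uninjured C57BL/6 joints of 1-week than at 0-day (7.21% of all genes), and all 45 were positive by sign. Cenpe, the kinetochore motor gene, led these with 0.53 (SE 0.12, adjusted p = 0.000813). The erythroid sum was 3872 to 5414 CPM in these joints and 2949 to 3534 CPM at 0-day, with 0 of 7 markers called, and the activated fibroblast sum was 7154 to 10710 CPM and 15700 to 21250 CPM, with 6 of 8 called lower. All 8 growth plate cartilage markers were called lower, with sums of 1056 to 2836 CPM and 1975 to 5764 CPM. T cell sums were higher without overlap, at 52.77 to 64.86 CPM and 42.51 to 48.97 CPM, with Cd8a and Cd3e called higher. The part of these markers in the result was not tested. In STR/ort 5 members were higher at 1-day (14.2%) and 2 at 1-week (17.5%). The STR/ort member medians of 0.19 and 0.09 turned to -0.15 and -0.17 with 1 RUVg factor, and the second also turned to -0.08 after housekeeping scaling, so that no direction is given. In STR/ort the injury effect was lower at 1-week than at 1-day for 3 members (4.12%), and all 45 were negative by sign. Mcm5 led with -0.53 (SE 0.16, adjusted p = 0.0173). In the same comparison 5 of 8 activated fibroblast, 2 of 8 growth plate cartilage (Acan and Sox9) and 2 of 6 muscle precursor markers were called higher, and their part in the result was not tested.

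**Figure D4:**
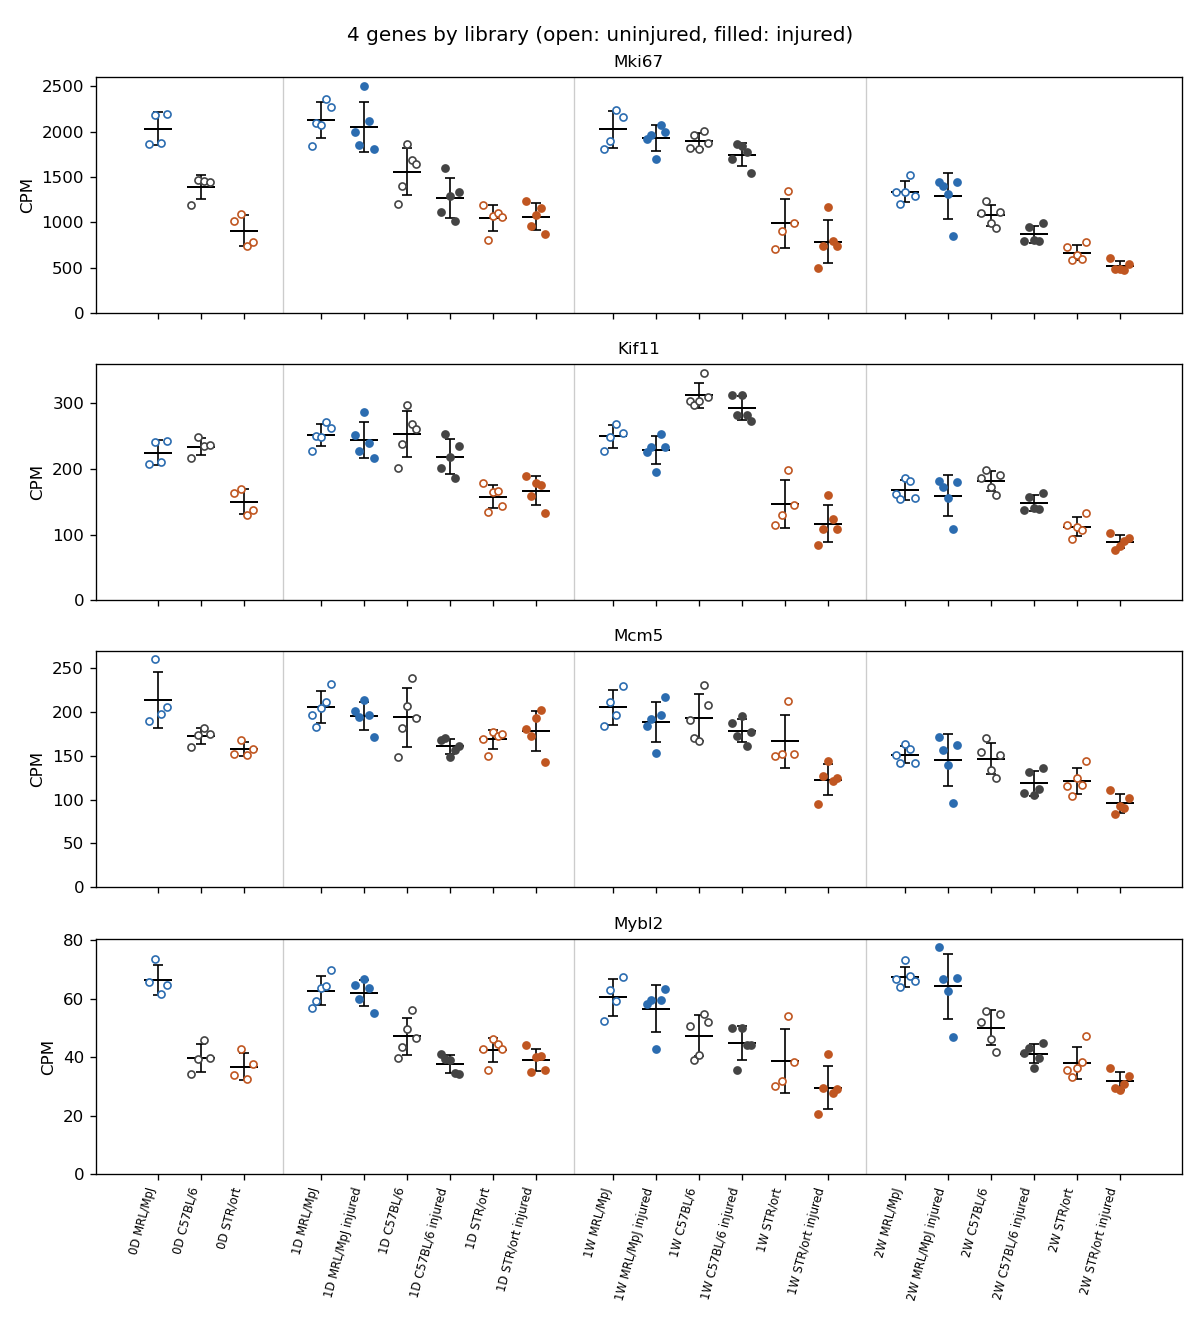
CPM of Mki67, Kif11, Mcm5 and Mybl2 in each library (open points uninjured, filled injured joints), by time and strain, with group means and SDs. Mki67 in injured joints of 2-weeks lies between 473 and 604 CPM in STR/ort and between 851 and 1450 CPM in MRL/MpJ.

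Other genes of the pathway were followed as lists fixed with earlier results known. Of 16 origin licensing and replication fork genes, STR/ort had 5 below MRL/MpJ at 0-day (median -0.50, 6.44% of all genes), 9 in injured joints of 1-week (-0.68, 14.5%) and 12 in injured joints of 2-weeks (-0.73, 7.89%), and 0 were called in any injury comparison. Of 13 genes of the pocket protein, E2F and Myc group, 4 were lower and 2 higher in STR/ort than in MRL/MpJ at 0-day, where 6.44% of all genes were called lower and 8.34% higher. E2f2, an activating E2F factor, was at -1.002 (SE 0.0829, adjusted p = 3.53e-08) at 0-day and -1.34 (SE 0.10, adjusted p = 1.1e-11) in injured joints of 2-weeks. Among 9 G1 cyclins and kinases the members of the list moved apart. Ccnd2, a D-type cyclin, was called higher in STR/ort than in MRL/MpJ at 0-day (0.88, SE 0.0778, adjusted p = 8.06e-08), and Ccne1, the E-type cyclin that acts at S phase entry, was called lower (-0.76, SE 0.0785, adjusted p = 5.53e-07). C57BL/6 differed from MRL/MpJ in the same way for both, by 0.85 for Ccnd2 (SE 0.0774, adjusted p = 1.42e-07) and -0.77 for Ccne1 (SE 0.0778, adjusted p = 4.67e-07).

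Of 10 CDK inhibitors and p53 targets, the median stayed between -0.07 and 0.09 in the injury comparisons. Cdkn1c, which encodes the inhibitor p57, was called higher in injured joints of C57BL/6 and STR/ort at 1-week (0.63, SE 0.11, adjusted p = 9.78e-05, and 0.62, SE 0.11, adjusted p = 0.000156) and at 2-weeks (0.68, SE 0.12, adjusted p = 0.000214, and 0.80, SE 0.12, adjusted p = 1.3e-05). Cdkn1a, which encodes the inhibitor p21, was called higher in STR/ort than in MRL/MpJ at 0-day (0.82, SE 0.12, adjusted p = 3.15e-05), and the p53 target Gadd45a was called lower (-0.74, SE 0.11, adjusted p = 2.8e-05). In uninjured joints of 1-week Cdkn1a was higher in STR/ort than in C57BL/6 by 1.86 (SE 0.13, adjusted p = 3.89e-12). With injury Cdkn1a was called higher in MRL/MpJ at 1-day (0.63, SE 0.0966, adjusted p = 5.78e-05) and in C57BL/6 at 2-weeks (0.59, SE 0.12, adjusted p = 0.00127). In STR/ort the INK4 inhibitor genes Cdkn2b at 1-week (1.19, SE 0.29, adjusted p = 0.00346) and Cdkn2a at 2-weeks (1.37, SE 0.41, adjusted p = 0.0222) were called higher, and no gene of this list was called lower with injury in any strain.

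Marker genes of other cell types also differed between strains, in both directions. Of the 10 erythroid markers 7 were measured, none at 0 in any library, while Hbb-b1, Hba-a1 and Ahsp were not analysed here. Their summed level at 0-day was 4415 to 5349 CPM in MRL/MpJ, 2949 to 3534 CPM in C57BL/6 and 2191 to 2337 CPM in STR/ort, the order of the member mean. In STR/ort 6 of the 7 were called lower than in MRL/MpJ and 3 lower than in C57BL/6, and 3 were lower in C57BL/6 than in MRL/MpJ. In injured joints of 2-weeks all 7 were lower in STR/ort than in MRL/MpJ, with sums of 1308 to 2087 CPM and 3006 to 5099 CPM. T cell markers (all 7 measured) were lower in STR/ort than in MRL/MpJ for 4 at 0-day, with sums of 24.8 to 36.5 CPM and 69.4 to 80.4 CPM. Granulocyte precursor markers (all 10 measured) summed to 11160 to 13750 CPM in MRL/MpJ, 10790 to 13240 CPM in C57BL/6 and 8239 to 10910 CPM in STR/ort at 0-day, and only Ltf, a granule protein gene, was lower in STR/ort than in MRL/MpJ. B cell precursor markers (9 of 10 measured) went the other way against MRL/MpJ at 0-day. They summed to 151.6 to 180.2 CPM in MRL/MpJ, 268 to 348.9 CPM in C57BL/6 and 225.5 to 305.3 CPM in STR/ort, with 7 called higher in C57BL/6 and 5 in STR/ort than in MRL/MpJ. Fast muscle markers (all 8 measured) summed to 76490 to 93190 CPM, 34990 to 56670 CPM and 80390 to 90680 CPM in these strains. Activated fibroblast markers (all 8 measured) summed to 8005 to 9734 CPM, 15700 to 21250 CPM and 13160 to 14200 CPM at 0-day, with 6 called higher in C57BL/6 and 4 in STR/ort than in MRL/MpJ. In injured joints of 1-week all 8 were higher in STR/ort, at 40360 to 69220 CPM against 15480 to 17980 CPM in MRL/MpJ. In those joints all 8 fast muscle markers were lower in STR/ort than in either other strain, with sums of 14900 to 32600 CPM against 47150 to 78910 CPM in MRL/MpJ and 30160 to 58540 CPM in C57BL/6. Against C57BL/6, 8 of the 9 B cell precursor markers were lower there as well, at 107.6 to 199.8 CPM against 291.8 to 336.6 CPM, as were 6 of the 7 T cell and 6 of the 7 erythroid markers. Growth plate cartilage markers (all 8 measured) ran opposite to the members in injured joints, with 6 called higher in STR/ort than in MRL/MpJ at 1-week (2726 to 5499 CPM against 990.1 to 2560 CPM) and 7 at 2-weeks (3471 to 5196 CPM against 980.7 to 2142 CPM), without overlap. At 0-day 1 of the 8 was called higher, and the sums overlapped at 2504 to 4436 CPM and 1723 to 3165 CPM. The part of these markers in the strain differences of the members was not tested.

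**Figure D5:**
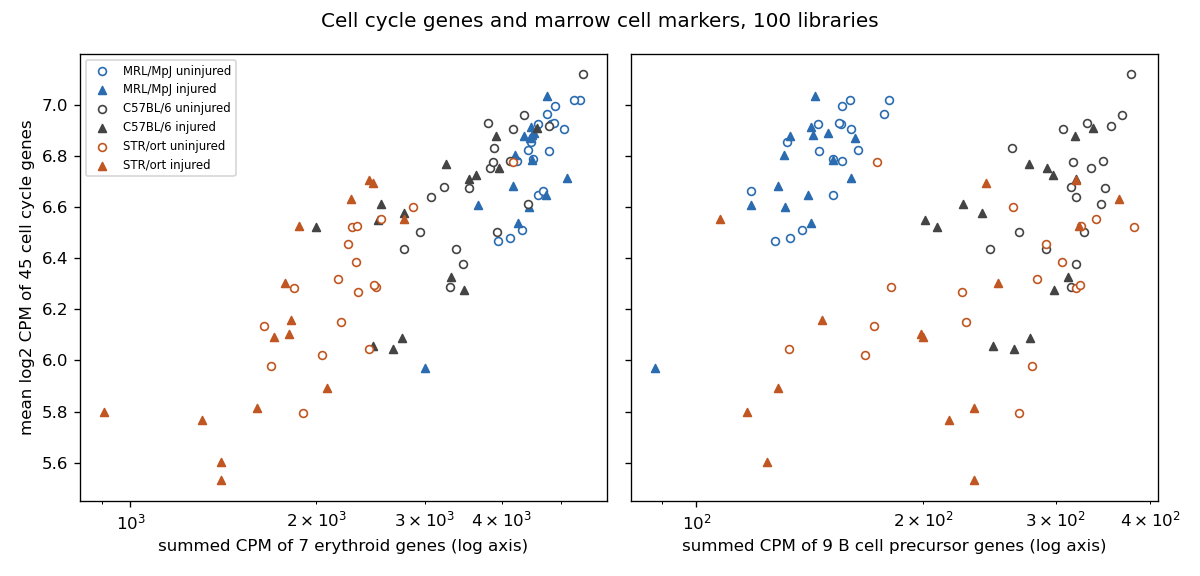
Mean log2 CPM of the 45 members against the summed CPM (log axis) of the 7 measured erythroid and the 9 measured B cell precursor markers, 1 point per library, by strain and joint. The libraries share depth and normalization, and the plot is a description of these 100 libraries. At 0-day the erythroid sum runs from 2191 to 2337 CPM in STR/ort and from 4415 to 5349 CPM in MRL/MpJ.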

How the data were processed

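Whole knee joints were sequenced from poly(A)-enriched RNA in 100 libraries. Per the labels, the authors used TopHat2 (2.0.11) for alignment to mm10 and featureCounts for counting per gene, and the deposited values are whole-number counts without normalization. Counting was per RefSeq gene with the Rsubread package, and the use of strand is not given in the sources used here. Of 17313 listed rows, 3 repeats were dropped. The study's filter, 2 or more counts in 5 or more libraries, removed 0 genes. No 2 libraries of a group, over 190 pairs, had identical counts.

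Counts were scaled by TMM and tested with the quasi-likelihood test of edgeR (version 4.0.16, R 4.3.3), with Benjamini-Hochberg adjustment over 17310 genes. Each time point was 1 fit with strain by joint groups, 0-day 1 fit with strain groups, and comparisons over time 1 fit of all 100 libraries. All adjusted p come from this test unless another is named. CPM used TMM factors, and log2 CPM a prior count of 2. Differences are log2 fold changes of the first group named over the second. The study normalized with RUVSeq on 25 housekeeping genes before edgeR. Neither the edgeR test nor the number of RUVSeq factors is given in the sources used here, so RUVg with 1 and 2 factors was an alternative. Others were RLE size factors, housekeeping scaling, DESeq2 (version 1.42.0), no filter, filterByExpr, the compared groups alone, a replicate block and each library left out. The fits were tested on simulated data.

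The labels name the animal only at 2-weeks, where both joints of a number come from 1 mouse. Elsewhere p values measure only the spread between joints, which may be technical. Deviations from group means correlated between same-numbered STR/ort joints of 1-week at 0.162 to 0.37 in all 4 pairs, which were taken as paired. In the other strains and at 1-day at least 1 pair lay below 0.1, and those joints were not taken as paired. A low correlation cannot show that 2 joints come from different mice. At 2-weeks, where the labels name 1 mouse, the MRL/MpJ pairs lay at -0.279 to 0.0824, with 0 of 5 over 0.1. Whether same-numbered joints of 1-day and of the other strains at 1-week share a mouse is therefore not known.

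The members and lists were chosen with earlier results of these data known. Genes were named by rule: Mki67, Top2a, Cdk1, Ccnb1, Foxm1, Mcm5, Rrm2 and E2f1, and per comparison the called member with the smallest adjusted p and that with the largest change. From the other lists, the gene called at the smallest adjusted p was named. Other genes were named after their values were seen, among them those past the adjusted p alone, a count that was also added.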

Additional observations from a re-analysis of the deposited data

Results flagged for a closer look

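The members' mean and the 8 core genes were examined for a single library far from the rest of its group, 189 sets in all, of which 23 stood out. Chance alone gives such a library in about 1 of 20 sets, and values of 1 library are not independent. The injured MRL/MpJ joint numbered 4 of 2-weeks was low in its group for the member mean (5.97) and for Mki67 (9.73), Top2a (8.31), Cdk1 (5.85), Foxm1 (5.28) and Rrm2 (7.02), all in log2 CPM. It also had the highest fast muscle sum of its group, 132700 CPM, the lowest erythroid sum, 3006 CPM, and the lowest B cell precursor sum, 87.98 CPM. Their part in these values was not tested.

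At 1-week the STR/ort joints numbered 3 were high for Ccnb1, a mitotic cyclin, at 6.73 in the uninjured and 6.69 in the injured joint, and the uninjured one for Mcm5 (7.73). In uninjured STR/ort joints of 1-day number 2 was low for the member mean (6.28), Mcm5 (7.23) and Rrm2 (7.15). The injured STR/ort joint 5 of 1-day was low for Top2a (8.81) and Foxm1 (5.15). The uninjured C57BL/6 joint 1 of 1-day was low for Cdk1 (5.98), Ccnb1 (6.36), Rrm2 (7.65) and E2f1 (4.40), and the injured C57BL/6 joint 2 of 1-day was high for Top2a (9.46). At 0-day the C57BL/6 joint 1 was low for Mki67 (10.21) and Rrm2 (7.59), and the MRL/MpJ joint 2 was high for E2f1 (4.97). The injured MRL/MpJ joint 3 of 1-week was low for Rrm2 (7.64).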

How the results depend on the processing

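Member medians of STR/ort against either other strain stayed negative under every scaling and test tried, while counts of members called moved. For C57BL/6 against MRL/MpJ at 1-week the medians of 0.05 (uninjured) and 0.00 (injured) turned to -0.13 and -0.15 with 2 RUVg factors. Injury and interaction comparisons called 0 members under every alternative tried. Below, injury counts are members lower at an adjusted p below 0.05, strain counts are members called lower, and MRL, BL6 and STR stand for MRL/MpJ, C57BL/6 and STR/ort. DESeq2 gave 14 for BL6 injury at 2-weeks, and filterByExpr gave 8 for STR injury at 1-week. With the compared groups alone, injury counts were 4 for BL6 at 1-day, 1 for BL6 and 1 for STR at 1-week, and 33 for BL6 at 2-weeks. With the replicate block they were 1 for BL6 and 26 for STR at 1-week and 16 for BL6 and 22 for STR at 2-weeks. The other counts were the same with the block. Joints of 1-week without a partner were left out of it.

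Housekeeping scaling gave injury counts of 20 (BL6) and 1 (STR) at 1-day, 14 (STR) at 1-week, and 10 (BL6) and 38 (STR) at 2-weeks. Strain counts became 11 for STR against MRL at 0-day. In uninjured joints they were 15 and 3 for STR against MRL and BL6 at 1-day, 28 and 32 at 1-week, and 9 and 0 at 2-weeks, and in injured joints 13 against MRL at 1-day.

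With 1 RUVg factor, injury counts were 21 (BL6, 1-day), 17 (STR, 1-week) and 35 (STR, 2-weeks). At 0-day BL6 against MRL gave 4 and STR against BL6 0. In uninjured joints BL6 against MRL, STR against MRL and STR against BL6 gave 3, 35 and 5 at 1-day. At 1-week STR gave 31 against MRL and 37 against BL6, and at 2-weeks BL6 against MRL gave 1. In injured joints of 1-day BL6 and STR gave 5 and 22 against MRL, and at 2-weeks BL6 gave 5.

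With 2 factors, injury counts were 34 (BL6) and 3 (STR) at 1-day, 17 (STR) at 1-week, and 23 (BL6) and 45 (STR) at 2-weeks. Strain counts, in the order BL6 against MRL, STR against MRL and STR against BL6, were 0, 11 and 1 at 0-day. In uninjured joints they were 1, 31 and 7 at 1-day, 28 and 39 for STR at 1-week, and 2 and 0 for STR at 2-weeks. In injured joints they were 5, 23 and 1 at 1-day, 1 and 42 for the first and the last at 1-week, and 1, 13 and 0 at 2-weeks. Between uninjured joints of 1-week and 0-day 1 member was called. With both STR joints numbered 3 of 1-week left out, chosen after seeing the data, injury of BL6 at 1-week gave 1 and uninjured STR gave 25 against MRL and 29 against BL6.

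Over single libraries left out, injury counts ran from 3 to 24 (BL6, 1-day), 0 to 31 (STR, 1-week), 1 to 32 (BL6, 2-weeks) and 3 to 41 (STR, 2-weeks). Strain counts for STR against BL6 ran from 1 to 4 at 0-day, and in uninjured joints from 1 to 3 at 1-day, 9 to 32 at 1-week and 3 to 10 at 2-weeks, and from 16 to 35 in injured joints of 1-week. For uninjured STR against MRL they ran from 13 to 27 at 0-day, 6 to 27 at 1-week and 9 to 25 at 2-weeks. For injured STR against MRL they ran from 19 to 32 at 1-week and 35 to 45 at 2-weeks, and for injured BL6 against MRL at 2-weeks from 1 to 9. The causes of these changes were not tested. Every member had at least 136 counts in each library, and each group 4 or 5 joints.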

Other observations

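Genes outside the list whose log2 CPM followed the member mean most closely were sought over the 100 libraries after subtraction of group means, which leaves the spread between joints of a group. The 10 closest were Rrm1 (Pearson r = 0.955), the large subunit of ribonucleotide reductase, Spag5 (0.952), Ncapd2 (0.947), a condensin subunit, Lig1 (0.944), a DNA ligase, Cdca3 (0.938), Ctse (0.925), an aspartic protease, Hmmr (0.924), E2f8 (0.92), a repressing E2F factor, Dlgap5 (0.919) and Ckap2l (0.919). Among the members themselves r with the mean of the other members ran from 0.675 for E2f1 and 0.723 for Cenpa, the centromeric histone, to 0.948 for Mcm3. The libraries share depth and normalization, and these values are a description of them.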
